A study of Mus musculus with 8 samples.

Results

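The CD11 integrin genes Itgax, Itgam, Itgad and Itgal encode the alpha chains CD11c, CD11b, CD11d and CD11a, and Itgb2 encodes CD18, the beta chain that all of them share. Open chromatin at these 5 genes was followed in alveolar macrophages (AMs) by ATAC-seq, in which a transposase inserts adapters into accessible DNA. Members were the accessible regions (peaks merged across libraries where they shared at least 1 bp) that overlapped the body of one of the genes or the 20 kb on either side of it. There were 60 such regions of 82424 in all, 50 of them found in 2 or more libraries and 40 in all 8. Assigned to the nearest of these 5 genes, 9 belonged to Itgax, 14 to Itgam, 10 to Itgad, 8 to Itgal and 19 to Itgb2. Some of them lay nearer the start of another gene.

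Mature AMs came from the bronchoalveolar lavage of adult mice on a C57BL/6J background. Of the 8 libraries, 4 were WT (CD11cCre- Rxrab fl/fl) and 4 were KO (CD11cCre+ Rxrab fl/fl). Both genotypes carried the floxed alleles of the retinoid X receptor genes Rxra and Rxrb, and only KO mice carried the Cre that deletes them. The comparison asked what loss of these lipid-sensing nuclear receptors does to AM chromatin. The labels name no treatment for either genotype, and neither the animal behind each library nor its sex was given. Cre in the KO mice is a transgene driven by regulatory sequence of Itgax itself, and mature AMs were separated from immature AMs by low surface CD11b, the product of Itgam. Both facts touch the genes described here. Libraries were named by replicate as 1_2, 1_3, 2 and 3 in KO and 1_2, 1_3, 3 and 4 in WT. Nothing in the labels says if 1_2 and 1_3 were taken from a single mouse, so part of the spread between libraries may be technical. The p-values below rest on that spread and, to a large part, on a variance trend pooled over all tested regions.

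Each alpha chain pairs with CD18 in the membrane, and the pair binds ligands once it has been switched on from inside the cell. CD11a/CD18 binds intercellular adhesion molecules, and CD11b/CD18 and CD11c/CD18 are the complement receptors of myeloid cells, with fibrinogen and iC3b among their ligands. CD11d/CD18 binds some of the same ligands. Resident AMs carry high surface CD11c and little CD11b, in contrast to most tissue macrophages, so that these chains serve to identify them by flow cytometry. In the mouse genome Itgam, Itgax and Itgad stand in a row on chromosome 7 in the same orientation, and Itgal lies farther away on the same chromosome. Itgb2 lies on chromosome 10.

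In the GRCm38 (mm10) assembly, Itgam (ENSMUSG00000030786.18) spans chr7:128062640-128118491 and Itgax (ENSMUSG00000030789.9) spans chr7:128129547-128150657, with 11.1 kb between them. Itgad (ENSMUSG00000070369.13) follows 3.72 kb after Itgax at chr7:128154376-128223816. Itgal (ENSMUSG00000030830.18) spans chr7:127296260-127335138, which ends 727.5 kb before Itgam starts. Itgb2 (ENSMUSG00000000290.13) spans chr10:77530252-77565708. All 5 genes are on the plus strand.

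The sequences around which the differences turned were read from the RefSeq copy of GRCm38 on the plus strand. The first is the region upstream of Itgam that had a peak in every WT library and in no KO library, shown whole (chr7:128059172-128059424). The second is the middle of the Itgax intron region with the largest difference between genotypes (chr7:128137122-128137272). Capitals mark a RUNX letter match (TGTGGT), and a sequence without capitals held none of the 7 patterns searched. Within 100 bp of its summit, the Itgax intron region had a RUNX match that the printed bases do not hold.
Itgam upstream region: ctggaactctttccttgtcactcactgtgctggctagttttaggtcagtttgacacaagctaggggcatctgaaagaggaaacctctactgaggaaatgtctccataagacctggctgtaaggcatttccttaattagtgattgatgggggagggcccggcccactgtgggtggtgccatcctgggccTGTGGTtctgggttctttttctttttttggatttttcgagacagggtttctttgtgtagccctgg
Itgax intron summit: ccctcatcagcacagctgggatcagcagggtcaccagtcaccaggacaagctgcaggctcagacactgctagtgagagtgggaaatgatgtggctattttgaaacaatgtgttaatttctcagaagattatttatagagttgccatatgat

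The 150 bases before the transcription start sites (TSSs) of the 4 members with an open TSS region are printed next, and cover only part of each start region. They lie at chr7:128129397-128129546 for Itgax, chr7:128062490-128062639 for Itgam, chr7:127296110-127296259 for Itgal and chr10:77530102-77530251 for Itgb2. Capitals mark an AP-1 match (TGANTCA) before Itgax, a PU.1 match (GAGGAAGT, here on the minus strand) before Itgal and an E-box (CACGTG) before Itgb2. None of the patterns was found in these bases before Itgam. Within 100 bp of the summits of the TSS regions, RUNX letters were also found at Itgax, Itgam and Itgb2, and PU.1 letters at Itgb2.
Itgax: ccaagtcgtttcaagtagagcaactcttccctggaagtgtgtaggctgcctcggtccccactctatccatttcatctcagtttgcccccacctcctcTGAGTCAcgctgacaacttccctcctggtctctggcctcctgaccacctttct
Itgam: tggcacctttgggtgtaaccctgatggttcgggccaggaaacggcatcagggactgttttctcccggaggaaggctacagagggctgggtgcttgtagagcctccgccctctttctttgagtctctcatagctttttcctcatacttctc
Itgal: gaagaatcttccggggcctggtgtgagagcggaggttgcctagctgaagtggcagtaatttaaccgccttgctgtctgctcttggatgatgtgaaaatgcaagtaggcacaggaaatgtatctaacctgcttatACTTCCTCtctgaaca
Itgb2: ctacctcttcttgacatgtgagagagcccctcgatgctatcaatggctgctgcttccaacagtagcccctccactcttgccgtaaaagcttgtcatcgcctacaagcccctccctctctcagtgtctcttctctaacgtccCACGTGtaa

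The deposited lists gave no read counts. Summit tags, the number of read ends extended to 200 bp that overlap the highest point of a peak, were worked back from the fold and p-value of each peak, and the local background, the tags the peak caller expected there from the surrounding window, came with them. Genome-wide background, a measure of depth, ran from 1.12 to 1.86 tags per 200 bp in KO and from 1.42 to 2.26 in WT. The label of the cells was checked at promoters of marker genes. Of 12 AM markers 11 had a promoter peak in all 8 libraries, Siglecf, Pparg and Itgax among them, and Chil3 had none. No library had one at the 4 T and B cell genes, the 2 endothelial genes, Ly6g, Retnlg, Xcr1 or Sftpc. Ly6c2, Cx3cr1, S100a8, Flt3, Zbtb46, Epcam and Cdh1 were open in all 8, and Ccr2 in 1 library of each genotype. Promoter occupancy therefore did not differ between genotypes at these markers, and fewer cells of a type and less open chromatin per cell cannot be told apart in such bulk libraries.

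Itgax, the gene of CD11c, showed the largest difference. Of its 9 regions, 5 were present in all 8 libraries, and each of the 5 was higher in KO, with log2 differences from 0.55 to 2.21. Differences were tested with limma on log2(tags + 0.5) after each library was centred on its median, and p-values were adjusted by Benjamini-Hochberg over the 47499 regions present in all 8. Of these, 5.81% were called higher in KO and 7.03% lower, at an adjusted p under 0.05. The median log2 difference over all of them was 0.04.

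The largest difference lay in an intron 7.65 kb after the Itgax TSS (chr7:128136986-128137473). KO libraries 1_2, 1_3, 2 and 3 held 372, 348, 340 and 304 summit tags. WT libraries 1_2, 1_3, 3 and 4 held 89, 104, 85 and 66. The lowest KO library thus stood far above the highest WT library. The log2 difference was 2.21 (SE 0.09, limma adjusted p = 8.27e-24), or 4.62-fold.

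The strongest Itgax region by mean tags covered an exon 4.30 kb after the TSS (chr7:128133543-128134091). It held 514, 502, 379 and 448 tags in KO and 185, 218, 239 and 152 in WT, again without overlap (log2 difference 1.44, SE 0.09, limma adjusted p = 1.46e-17). Its mean of 329.6 tags over all libraries was higher than that of 96.9% of the regions tested. Intron regions at 9.03 kb and 10.2 kb after the TSS differed by 1.93 and 1.90 on the log2 scale. The first (chr7:128138382-128138761) held 273, 240, 200 and 200 tags in KO and 64, 77, 83 and 54 in WT. The second (chr7:128139514-128139968) held 432, 388, 358 and 344 in KO and 96, 122, 140 and 117 in WT. Neither pair of groups overlapped.

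The Itgax TSS region (chr7:128129193-128129717) differed least of the 5. It held 167, 202, 166 and 151 tags in KO and 140, 158, 142 and 105 in WT. The raw tags overlapped, and the centred values did not (log2 difference 0.55, SE 0.10, limma adjusted p = 3.83e-05). A smaller region just upstream, named here after its values were seen (chr7:128128850-128129095, 561 bp before the TSS), had 85, 89, 76 and 68 tags in KO and 45, 61 and 55 in WT libraries 1_2, 1_3 and 3. WT library 4 had no peak there, so the region was outside the test.

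The local background moved with these tags. At the 5 Itgax regions it was 2.06 to 4.32 times as high in KO as in WT, each scaled to the genome-wide background of its library, whereas over all regions tested the median ratio was 0.995. This background is averaged over a window that takes in the peaks themselves and their neighbours. When the deposited fold enrichment, which divides by that background, was tested in place of the tags, the differences at the strongest exon region and at 10.2 kb became 0.07 and -0.09 on the log2 scale, and that at the TSS became -0.44 (limma adjusted p = 0.0508). Of the 15 member regions called higher in KO on tags, 2 were called on fold enrichment. Reads from copies of Itgax sequence in a Cre transgene would align to the endogenous gene, and the transgene is present in KO only. More copies of a sequence and more open chromatin on it therefore cannot be told apart here. The labels do not give the extent of the transgene, so the same limit applies to the Itgam and Itgad regions below.

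**Figure D1:**
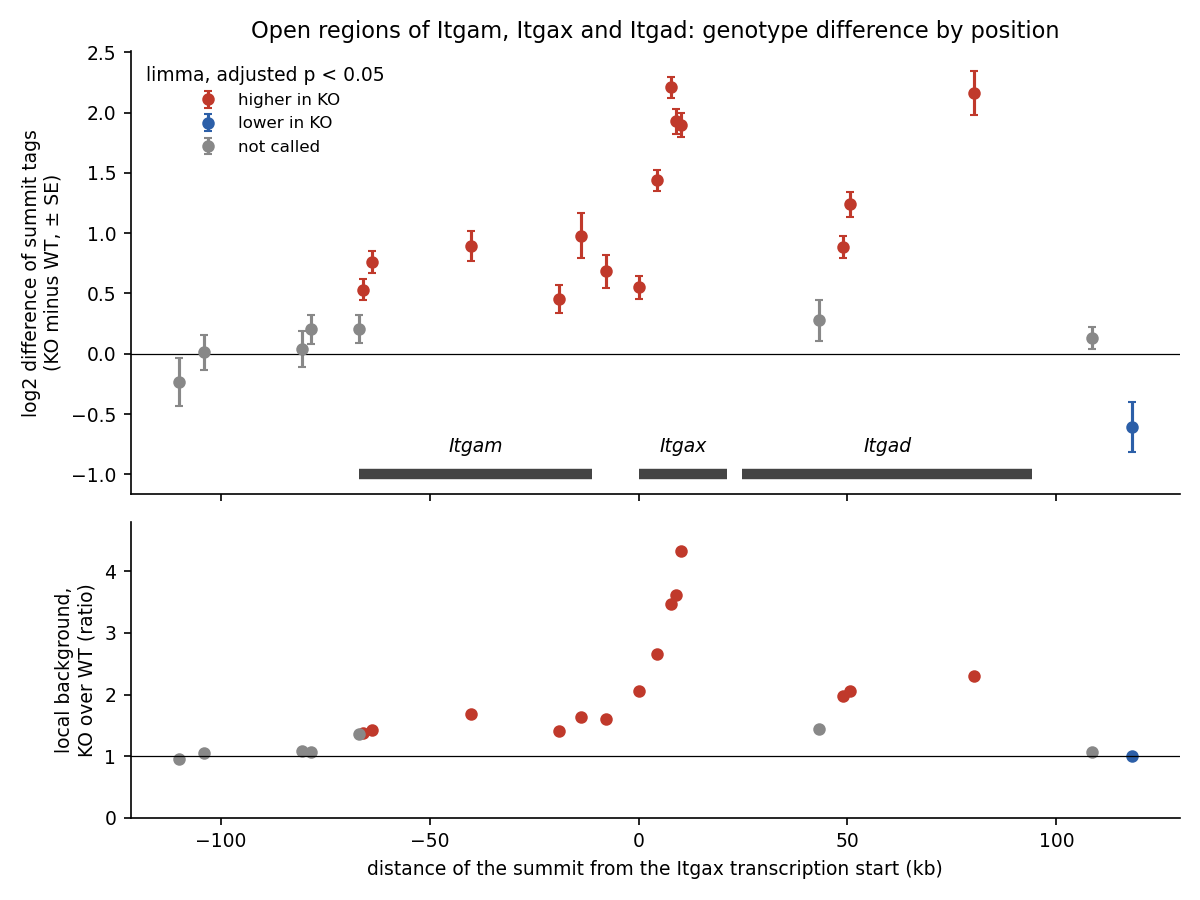
Top, log2 difference of summit tags (KO minus WT, points, with SE as bars) at each region present in all 8 libraries, against the distance of its summit from the Itgax TSS in kb. Bottom, the ratio of local background, KO over WT. Grey bars mark the gene bodies, and colours mark the limma call. The points rise after the Itgam TSS and peak inside Itgax at 2.21. They fall to 0.28 in an Itgad intron and reach 2.16 at the far Itgad region. After Itgad they stand at 0.13 and at -0.61, the latter called lower in KO. The background ratio is also raised over the called regions and peaks at 4.32, but it does not track the tags point by point. It was 2.06 at the Itgax TSS and 2.30 at the far Itgad region, where the log2 differences were 0.55 and 2.16.

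Itgam, the gene of CD11b, had 14 regions, 9 of them in all 8 libraries. Of those 9, 6 were called higher in KO and none lower, with log2 differences from 0.45 to 0.98 among the 6. The TSS region (chr7:128062500-128062802) was not called. It held 102, 87, 90 and 79 tags in KO and 94, 97, 87 and 82 in WT, and the groups overlapped (log2 difference 0.20, SE 0.12, limma adjusted p = 0.273). The same region holds the start of the overlapping gene model Gm49368.

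The first region after it, the strongest of Itgam, was called. This intron region (chr7:128063227-128063777) lay 898 bp from the nearest TSS of the gene and held 297, 290, 263 and 220 tags in KO and 197, 232, 263 and 171 in WT (log2 difference 0.53, SE 0.09, limma adjusted p = 2.29e-05). The centred groups did not overlap. The next intron region, at 3.08 kb (chr7:128065588-128065969), held 214, 212, 186 and 187 tags in KO against 138, 160, 149 and 105 in WT. It differed by 0.76 on the log2 scale (SE 0.09, limma adjusted p = 2.5e-08).

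Farther into the gene the differences were of like size and the counts lower. An intron region at 26.6 kb (chr7:128089028-128089776) held 140, 124, 98 and 81 tags in KO and 73, 81, 62 and 56 in WT (log2 difference 0.90, SE 0.12). An intron region near the 3′ end (chr7:128115357-128115963) held 42, 35, 35 and 32 tags in KO and 18, 27, 26 and 15 in WT (log2 difference 0.98, SE 0.19). Between Itgam and Itgax, a region 7.81 kb before the Itgax TSS (chr7:128121392-128122161) held 90, 93, 79 and 71 tags in KO and 64, 71, 73 and 38 in WT (log2 difference 0.68, SE 0.14). All KO values of these 3 regions were above all WT values after centring. The call at a further intron region (chr7:128110273-128110693) depended on the scaling. It held 108, 107, 95 and 93 tags in KO and 75, 104, 81 and 83 in WT, with a log2 difference of 0.45 (limma adjusted p = 0.00484). Scaled by background depth it was 0.40 (limma adjusted p = 0.205). On fold enrichment none of the Itgam regions called on tags was called, with log2 differences from 0.05 to 0.44. The local background ratio at these regions ran from 1.37 to 1.68.

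One region of Itgam went the other way. The region printed first above, 3.36 kb upstream of the Itgam TSS, had 58, 55, 54 and 47 tags in the WT libraries, and no KO library had a peak there. It was the only member region with a peak in all 4 libraries of 1 genotype and none of the other. Among the 72711 regions found in 2 or more libraries, 0.820% were of this WT-only kind and 0.285% were KO-only, with 3.46% and 1.20% if a margin of at least 3 libraries counted. No other member region reached that margin. With the background of the Itgam TSS region 3.38 kb away, a peak would have needed 30 to 38 tags in the KO libraries, so a region as high as in WT would have been called if it also spanned the minimal length. In the RefSeq assembly 92.5% of its bases are soft-masked as repeats, which made it the only one of the 60 member regions above 90% soft-masked. Among the regions of 2 or more libraries, 0.542% were above that share.

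**Figure D2:**
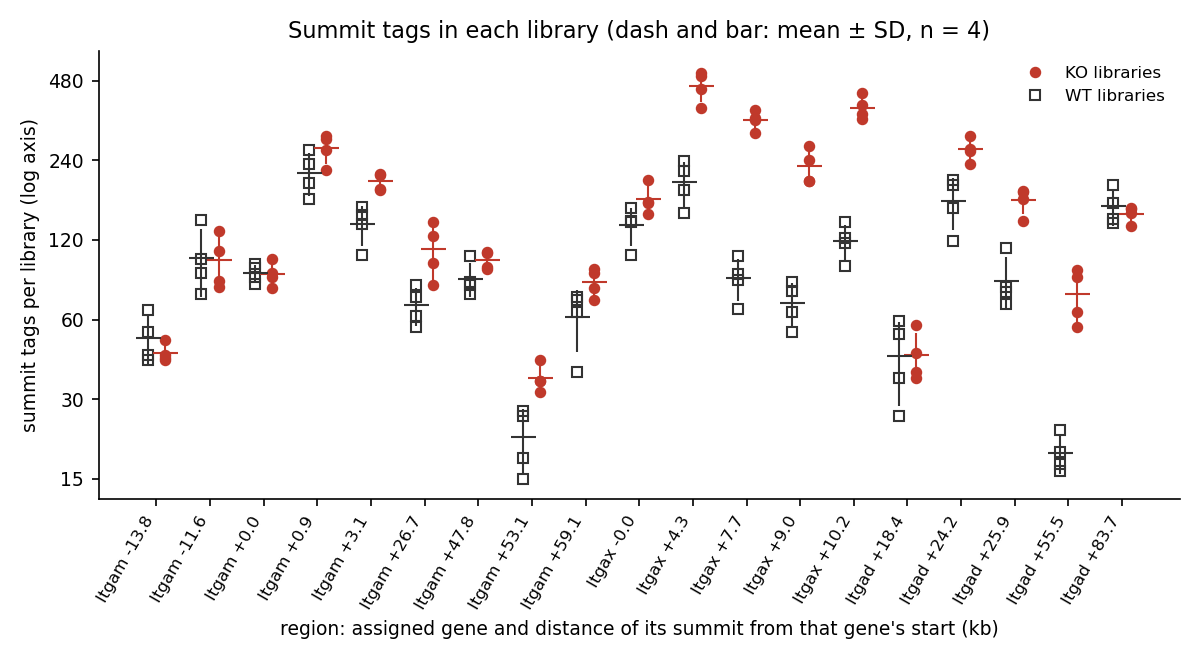
Summit tags (log axis) in each library at the 19 regions of Itgam, Itgax and Itgad present in all 8, in genome order and labelled by distance from the start of the gene record in kb. Filled red circles are the 4 KO libraries and open squares the 4 WT libraries, and dashes with bars are mean ± SD (n = 4). The groups stand widest apart at the Itgax intron regions and at the far Itgad region, and their raw tags overlap at the Itgam and Itgax TSS regions and at the outermost regions, among others.

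Itgad, the gene of CD11d, had no accessible region at any of its 3 annotated TSSs. The nearest region ended 1029 bp from the closest one. That region (chr7:128172383-128172917) lay in an intron, 18.35 kb after the start of the gene record. It held 57, 45, 38 and 36 tags in KO and 36, 59, 53 and 26 in WT, and was not called (log2 difference 0.28, SE 0.17, limma adjusted p = 0.306). Of the 5 Itgad regions in all 8 libraries, 3 were higher in KO.

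The strongest region of Itgad was another intron region (chr7:128178332-128178870) with 298, 266, 260 and 233 tags in KO and 159, 193, 203 and 119 in WT (log2 difference 0.89, SE 0.09, limma adjusted p = 5.26e-10). The intron region after it (chr7:128180058-128180411) held 183, 184, 141 and 172 tags in KO and 76, 112, 80 and 69 in WT. It differed by 1.24 on the log2 scale (SE 0.10). In both regions every KO library stood above every WT library.

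The third was a far region in the Itgad gene record, beyond its basic transcripts (chr7:128209674-128210274). Its summit lay 55.5 kb after the start of that record, and the nearest TSS, 3.53 kb away, was that of Cox6a2. It held 87, 92, 56 and 64 tags in KO and 16, 17, 23 and 19 in WT. The log2 difference was 2.16 (SE 0.18, limma adjusted p = 1.46e-12), or 4.48-fold. Here the difference remained on fold enrichment, at 1.25 on the log2 scale (SE 0.14, limma adjusted p = 0.000404). Mean fold enrichment reached 16.9 ± 1.32 in the KO libraries and 7.48 ± 1.60 in the WT libraries (SD, n = 4). The only other member called on that measure was the Itgax intron region at 7.65 kb, with 7.38 ± 0.31 in KO and 5.55 ± 0.60 in WT (log2 difference 0.47, limma adjusted p = 0.0425). In WT the local background of the far Itgad region was at the genome-wide level, and in KO it was 2.31 times that level. The genome-wide level was also the lowest background at any member region. If the true WT background was lower, WT fold enrichment is understated here, which was not tested.

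**Figure D3:**
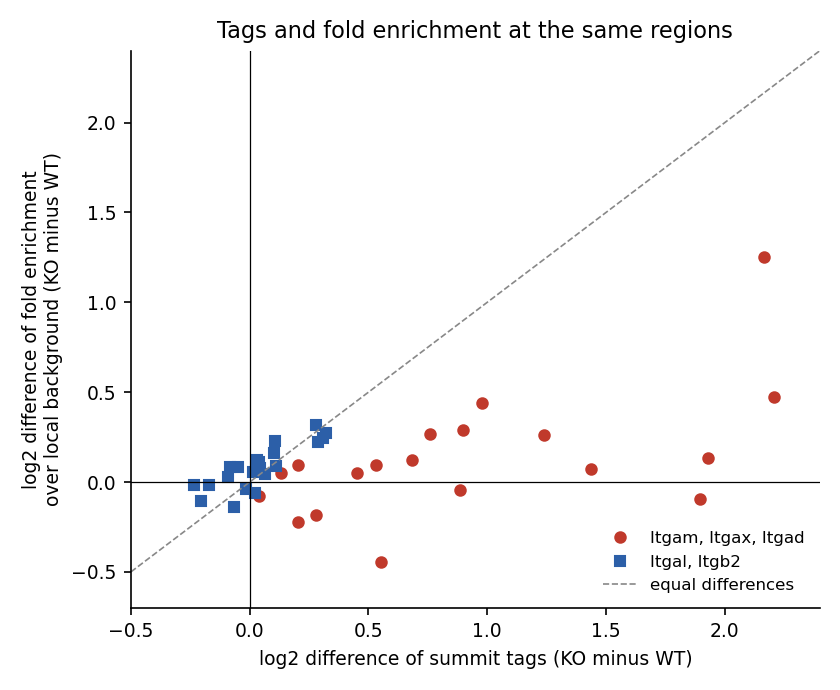
Log2 difference (KO minus WT) of summit tags against that of fold enrichment over local background, for the 40 member regions present in all 8. Circles are Itgam, Itgax and Itgad regions, squares are Itgal and Itgb2 regions, and the dashed line marks equal differences. Itgal and Itgb2 regions lie near the line, and most Itgam, Itgax and Itgad regions lie well below it, with the far Itgad region at 2.16 and 1.25.

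Across the 3 neighbouring genes, 14 of 19 tested regions were called higher in KO and none lower, with a median log2 difference of 0.76. In the same 14 regions every KO library was above every WT library after centring, which held for 8.25% of all regions tested. The called regions were consecutive except for the uncalled Itgad intron region 18.35 kb after the start of that gene. From the first Itgam intron region to the far Itgad region, 14 of 15 tested regions were called, and the local background ratio was 1.37 to 4.32 throughout. Copy number along this row was not tested. The 4 regions of the row outside these limits, 3 from upstream of Itgam to its TSS and 1 after Itgad (chr7:128237722-128238759, at the start of 9130023H24Rik), had log2 differences from 0.04 to 0.20. Apart from those described above, the regions of these genes seen in only part of the libraries held 12 to 64 tags. Among them, 3 had a peak in 2 KO and no WT libraries, and an Itgad intron region had 21 and 24 tags in 2 WT libraries and no KO peak.

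The limits of this row were followed over a wider stretch, added after the values of the member regions had been seen. Within 500 kb of the Itgax TSS and outside the member windows, 49 regions were tested, of which 2 were higher in KO and 7 lower. Their median log2 difference was -0.01, and their background ratio had a median of 0.972 and ran from 0.714 to 1.15. Along the genome, the longest run of consecutive tested regions called in 1 direction was the one from Itgam to Itgax, with 11 regions over 76.7 kb. The next run held 8 regions on the X chromosome.

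**Figure D4:**
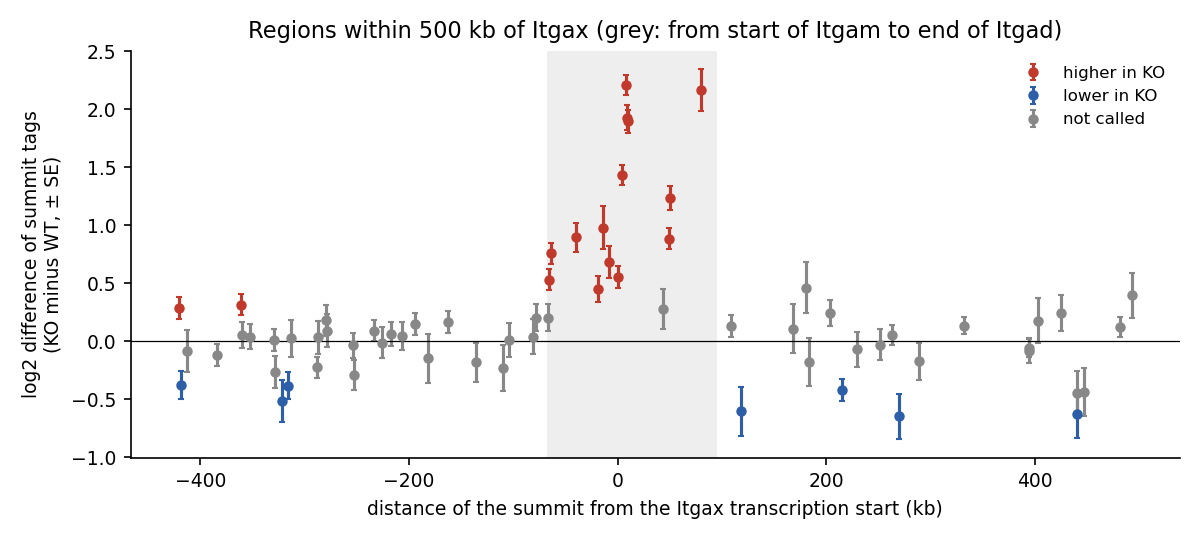
Log2 difference of summit tags (KO minus WT, with SE) for every tested region within 500 kb of the Itgax TSS, against distance in kb. Grey shading runs from the start of Itgam to the end of Itgad. All points above 0.5 lie within the shading, and the 49 points outside the windows scatter around a median of -0.01.

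Itgal, the gene of CD11a, had 8 regions, of which 6 were in all 8 libraries and none was called. Its TSS region (chr7:127296083-127296542) held 121, 119, 86 and 82 tags in KO and 113, 119, 125 and 91 in WT (log2 difference 0.07, SE 0.11, limma adjusted p = 0.755). The strongest region, in an intron just after the TSS (chr7:127297015-127297554), held 177, 178, 142 and 140 tags in KO and 168, 184, 188 and 143 in WT (log2 difference 0.11, SE 0.09). The groups overlapped at all 6 regions, and log2 differences ran from -0.07 to 0.31. The background ratio at Itgal was at most 1.04.

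Itgb2, the gene of the shared beta chain CD18, had the strongest region of all members and little difference between genotypes. That region (chr10:77550855-77551449) lay 20.9 kb inside the gene and held 499, 457, 423 and 458 tags in KO and 564, 577, 549 and 510 in WT. Its mean of 504.6 tags exceeded that of 99.6% of tested regions. Raw tags were lower in every KO library, but the centred values overlapped (log2 difference -0.05, SE 0.08, limma adjusted p = 0.751). The TSS region (chr10:77530117-77530473) held 143, 140, 120 and 120 tags in KO and 148, 171, 191 and 140 in WT (log2 difference -0.09, SE 0.10, limma adjusted p = 0.591).

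Of the 15 tested Itgb2 regions, 1 was called in each direction. An intron region at 6.63 kb (chr10:77536539-77537199), named here after its values were seen, held 401, 350, 337 and 270 tags in KO and 460, 502, 466 and 411 in WT. It was called lower in KO (log2 difference -0.23, SE 0.08, limma adjusted p = 0.0438), but the centred groups overlapped and the call was lost without KO library 1_3, 2 or 3 or WT library 1_2, 3 or 4. The region called higher was the promoter of the neighbouring gene Pttg1ip (chr10:77581417-77582314), with 184, 181, 174 and 145 tags in KO and 157, 182, 156 and 139 in WT. Its log2 difference was 0.32 (SE 0.09, limma adjusted p = 0.0127), and without KO library 2 it was 0.29 (limma adjusted p = 0.0536). The call was also lost with scaling by background depth (0.27, limma adjusted p = 0.477) and on fold enrichment (0.27, limma adjusted p = 0.123). Taken with Itgal, 1 of 21 regions was higher and 1 lower, with a median log2 difference of 0.03, and in 1 of the 21 all KO libraries were above all WT libraries. The background ratio at Itgb2 was 0.854 to 1.06.

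**Figure D5:**
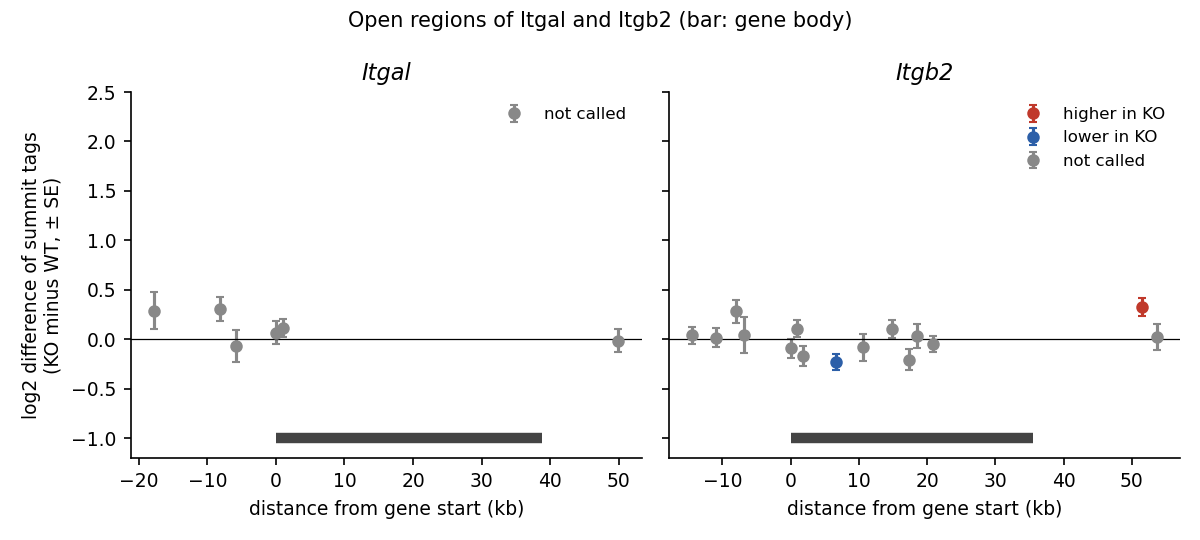
Log2 difference of summit tags (KO minus WT, with SE) at the tested regions of Itgal (left) and Itgb2 (right), against distance from the gene start in kb. Both panels share a vertical scale. Dark bars mark the gene bodies. All points lie between -0.23 and 0.32.

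The members also differed in how open their TSS regions were. In summit tags scaled by the library medians, the WT order was Itgb2 at 150.8 ± 20.3, Itgax at 125.4 ± 8.75, Itgal at 103.7 ± 11.1 and Itgam at 83.8 ± 9.57 (SD, n = 4). The ranges of Itgb2 and Itgax overlapped in WT, as did those of Itgal and Itgam, while those of Itgax and Itgal did not. In KO the order was Itgax at 184.1 ± 15.8, Itgb2 at 140.3 ± 3.42, Itgal at 108.7 ± 13.4 and Itgam at 96.1 ± 6.62. On this scale Itgax stood above Itgb2 in KO, without overlap, and Itgal and Itgam overlapped. The order depended on the measure. On fold enrichment the KO order was Itgal at 11.2 ± 0.77, Itgb2 at 7.94 ± 0.60, Itgax at 6.76 ± 0.55 and Itgam at 4.79 ± 0.21 (SD, n = 4), and the values of Itgb2 and Itgax overlapped. The WT order on that measure was Itgal at 11.4 ± 0.74, Itgax at 9.55 ± 0.65, Itgb2 at 8.10 ± 0.65 and Itgam at 5.82 ± 0.52. There the values of Itgal and Itgax overlapped. These are heights of accessible regions, not amounts of transcript.

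Each member was set beside the protein-coding genes whose accessibility over the 8 libraries was most like its own, by Pearson's r of the mean centred log2 tags over the regions of a gene. For Itgax these were Dnaaf1 (r = 0.994), Ecm1 and Tars2. For Itgam they were the same 3 genes, with r of 0.993 for Dnaaf1. For Itgad they were Malsu1 (r = 0.993), Dnaaf1 and B3gnt9. For Itgal they were Tob1 (r = 0.973), Gstm4 and Slc9a3r2, and for Itgb2 they were the histone genes Hist2h2aa1 and Hist2h3c1 (r = 0.957) and Nynrin. With 8 libraries in 2 genotypes and about 10280 genes searched, such values describe the likeness and carry no test. Ecm1 and Tars2 are neighbours that shared their regions, as did the 2 histone genes. Dnaaf1 differed by 0.34 on the log2 scale and Itgax by 1.27, since r does not depend on the size of the change.

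Genes that act with the CD11/CD18 integrins were taken as a list of 32, ordered by role. Their windows held 270 tested regions, of which 5.56% were higher and 4.44% lower in KO, near the shares over all regions. Of 20 regions of ligand genes, 2 were higher and 1 lower. Icam1, the ligand of CD11a/CD18 and CD11b/CD18, had the lower one (chr9:21040488-21040917, log2 difference -0.67, SE 0.17, limma adjusted p = 0.00678).

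Among genes that switch integrins on from inside the cell, 5 of 79 regions were higher and 2 lower. Fyb, the adaptor ADAP, had 2 of the 5, with a log2 difference of 0.86 at the region of smallest p (SE 0.19, limma adjusted p = 0.000985). Cyth1, which encodes the CD18-binding protein cytohesin-1, had 2 higher and 1 lower. A region of the small GTPase gene Rap1a was higher by 0.45 on the log2 scale (SE 0.12). No region of Fermt3 or Tln1, the genes of kindlin-3 and talin that bind integrin tails, was called.

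Among genes downstream of the integrins, 2 of 103 regions were higher and 8 lower. Pik3cg, the gene of a PI3-kinase catalytic subunit, had 2 lower regions (-0.65 on the log2 scale at that of smallest p, SE 0.14, limma adjusted p = 0.000681). The Src-family kinase gene Lyn had 2 lower and 1 higher, with -0.63 (SE 0.14) at the region of smallest p. Ptk2b, which encodes the adhesion kinase Pyk2, had 2 lower regions. None of the 14 Syk regions was called.

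Of the other integrin chains, 6 of 68 regions were higher and 1 lower. Itgae, the gene of CD103, had 2 higher and 1 lower, with 0.37 (SE 0.09) at the region of smallest p. Itga5, a chain of the fibronectin receptor, and Itgb7, the partner of Itgae, had 1 higher region each, at 0.51 and 0.47 on the log2 scale. The 4 tested regions of Itgb1 held no call.

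Letter matches near the summits were counted in the 50 member regions found in 2 or more libraries, within 100 bp on both strands. PU.1 letters stood in 18% of them against 10.7% of all 72711 such regions, RUNX letters in 32% against 23.1%, and CEBP letters (TTGCNNAA) in 22% against 14.7%. AP-1 letters were found in 8% against 11.9%, and E-box letters in 6% against 5.35%. DR1, the direct repeat with a spacing of 1 base to which RXR heterodimers bind, was counted as AGGTCA half-sites with at most 2 mismatches. It was found in 2 of the 50 regions, or 4%, against 4.14% of all. These were the region between Itgam and Itgax and an Itgb2 intron region (chr10:77547532-77547814). DR4, the same repeat with a spacing of 4 bases, was found in 3 regions, 6% against 2.63%. These shares are descriptions and were not tested, and RUNX, CEBP and PU.1 matches can stand in the same region.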

How the data were processed

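Accessibility was profiled by ATAC-seq in 4 WT and 4 KO libraries. Per the methods of the study, the authors used Cutadapt for trimming, Bowtie2 for alignment (mm10), a filter for duplicates and low-quality pairs, and MACS3 for peaks of each library, at a q-value threshold of 0.05. The deposited lists hold, for each peak, a fold enrichment over the local background and the −log10 p-value and −log10 q-value of the authors' caller. Replicates were not pooled.

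Summit tags and local background were solved from fold and p-value under the Poisson model, with 100% of peaks of each library recovered within a relative error of 1e-05. The lists used hold no read totals, so depth was taken as the background tags. Genes were those of GENCODE M21, and regions were tested with limma 3.58.1 (R 4.3.3, trended prior variance, two-sided) using genotype alone. The authors tested read counts with edgeR through DiffBind, which these lists do not allow. Summit tags have no molecular identifiers, and absence from a list says only that a site missed the caller's threshold.

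Members and gene lists were chosen with earlier results of these data known. Named regions were the TSS region and the strongest region of each member, regions whose peak counts differed by at least 3 libraries, up to 15 called member regions by smallest p, and up to 10 pathway genes with a call. Sequence and repeat masking came from the GRCm38 reference, and the lists fell within its chromosome lengths. Alternatives were depth scaling, quantile normalisation, a pseudocount of 5, fold enrichment, other region filters, a replicate block and leaving out each library. The summit sequence of 1 further region and the values of 1 gene of the pathway list are not reported here.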

Additional observations from a re-analysis of the deposited data

Results flagged for a closer look

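A single library stood apart from the other 3 of its genotype in 2 of the 40 sets of 4 values that were examined. At the Itgb2 TSS region, KO library 2 had a centred log2 value of 0.994, against 1.06 to 1.07 in the other KO libraries. At the strongest Itgam region, KO library 3 had 1.94, against 2.11 to 2.12 in the others. Both were gaps within tight groups, and chance flags about 1 in 20 such sets.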

How the results depend on the processing

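Of 320 values of the 20 named regions under the alternatives, 304 kept their side of the threshold. In 13 a called region was no longer called, and in 3 a called region lost its call and changed sign. Among the 304, uncalled regions could change sign, as the Itgam TSS region did on fold enrichment (-0.22). The number of member regions higher in KO was 13 to 16 except on fold enrichment. Deposited fold enrichment gave 2 higher and 0 lower, and reversed the Itgax TSS region (-0.44), the Itgax region at 10.2 kb (-0.0947) and the strongest Itgad region (-0.0432). It divides by a background that includes neighbouring peaks. Scaling by background depth gave 13 higher and 0 lower. Leaving out 1 library at a time gave 14 to 16 higher and 0 to 1 lower. With gene bodies alone the WT-only region upstream of Itgam was outside the windows, leaving 0. Over all regions, 2760 were higher and 3337 lower, against 575 and 1988 with depth scaling and 640 and 1038 on fold enrichment, and the cause was not tested. With the replicate number as a block, 16 member regions were higher and 1 lower. Same-numbered libraries correlated by 0.0555, 0.116 and 0.0368 in their deviations, too little to pair them, although each correlated best with its own number. Precision is limited by 4 libraries a genotype and by regions of few tags.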
